A study of Rattus norvegicus with 18 samples.

Results

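Il1b, Il1r2, Csf2 and Tnfsf13 encode 3 cytokines and the decoy receptor of IL-1. They were chosen by their gene symbols, with earlier results of these data known. They are 4 of the 4616 named genes on a microarray table of whole rat lung, where they take up 8 of 11994 rows. Each has 1 distinct probe, listed in 2 rows with the same values, and a log2 ratio in all 18 samples (3 of the 72 values stand in 1 of the 2 rows only). In the study, rats breathed either diluted cigarette smoke or conditioned fresh air through the nose for 2, 7 or 13 weeks. The rats had 2 exposures a day of 1 hour each, with a break of 30 minutes, on 5 days a week. Their lungs were taken 2, 6 or 20 hours after the final session of exposure. The high dose held 600 µg total particulate matter per litre and the low dose 300 µg per litre. Each dose has 9 samples, 1 for each combination of weeks and hours. A sample is the RNA of 4 smoke-exposed rats, pooled and labelled with Cy5, against the RNA of 4 fresh-air rats, pooled and labelled with Cy3, on 2-colour PIQOR arrays. The sources used here do not give strain, sex or age of the rats. A positive log2 ratio means more RNA in smoke-exposed lung than in air lung, a direction taken from the channel labels.

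IL-1β, the product of Il1b, is made as an inactive precursor, mainly by macrophages and other myeloid cells, and caspase-1 cuts it to its active form. It acts through the receptor IL1R1 with the accessory protein IL1RAP, and its signal runs over MYD88 and TRAF6 to NF-κB. IL1R2 binds IL-1β but carries no signalling domain, so it takes the cytokine away from the active receptor. GM-CSF, the product of Csf2, is needed in the lung of mice and humans for the maturation of alveolar macrophages and for the clearance of surfactant, and acts through CSF2RA, CSF2RB and the transcription factor PPARγ. TNFSF13, or APRIL, is a ligand of the TNF superfamily that supports B cells and plasma cells through the receptors TNFRSF13B and TNFRSF17, and shares them with its relative TNFSF13B, or BAFF.

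The promoter ends of the 3 cytokine genes are shown as context for their ratios over the hours after exposure, which are described further on. They are the 100 bases before the RefSeq start, all on the minus strand of GRCr8, at chr3:137036582-137036681 for Il1b, chr10:38889674-38889773 for Csf2 and chr10:54901816-54901915 for Tnfsf13. Capitals mark a TATA box (TATANAA on the strand of the gene) and an ETS core (GAGGAA on either strand).
Il1b: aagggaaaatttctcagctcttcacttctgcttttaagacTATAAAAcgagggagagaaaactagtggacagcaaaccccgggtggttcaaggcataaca
Csf2: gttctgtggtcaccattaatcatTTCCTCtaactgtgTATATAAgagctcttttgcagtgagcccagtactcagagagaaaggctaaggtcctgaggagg
Tnfsf13: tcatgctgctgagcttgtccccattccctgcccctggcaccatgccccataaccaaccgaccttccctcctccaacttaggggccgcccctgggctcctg
In the window of 250 bases before to 50 after the start, Il1b held a TATA box at -60 to -54 and Csf2 one at -63 to -57, while Tnfsf13 held none. Of 33469 rat promoters of this length, 8.13% held the TATA box. Csf2 also held the ETS core, read on its other strand, at -77 to -72, as did 27.6% of promoters in either direction. The κB motif GGGRNNYYCC (R for A or G, Y for C or T) was present in 7.51% of promoters. The AP-1 motif TGANTCA was present in 7.33%. Both were searched on both strands as exact matches and were found in none of the 3 windows. Looser forms of these motifs were not sought. These matches describe letters and not bound sites, and the motifs do not overlap in these windows.

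A sample holds values for 3919 to 4583 named genes, and sample medians lay between -0.01 and 0.01. No condition has a second sample, so p-values measure the spread between combinations of weeks and hours. In tests and levels over hours or weeks, the other factor is taken out by the fit of all 9 pool means. Their SE and p-values measure the spread left over, not that of the 3 pools of a level alone. The number of arrays limits the precision, and signal over background is unknown. Smoke RNA always carried Cy5, and a fixed bias of the dyes would add to every ratio against air but cancels in high minus low dose. In whole lung, more cells of a type and more RNA per cell cannot be told apart. A ratio gives no level, so the tissue label could not be checked by the level of lung markers, of which 13 of 24 listed epithelial ones were tested.

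All 4 genes rose at the high dose. Il1r2 rose most, 1.84-fold, followed by Tnfsf13, 1.74-fold, Csf2, 1.63-fold, and Il1b, 1.38-fold. A gene was called where its p, adjusted over all 4016 genes tested by the Benjamini-Hochberg method, was under 0.05. Of all genes tested, 9.56% were called higher at this dose, and the median log2 ratio over all genes was 0.003. By size of the mean ratio, from the top of 4016 genes, Il1r2 ranked 29, Tnfsf13 35, Csf2 43 and Il1b 93. The genes were chosen with earlier results known, so these ranks describe them and test nothing.

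Il1r2 had high-dose log2 ratios between 0.01 and 1.39 with a median of 0.90. Its lowest value was at 2 weeks and 20 hours and its highest at 7 weeks and 2 hours, and 7 of 9 samples lay above 1.5-fold. The mean was 0.88 ± 0.11 (SE, n = 9, limma adjusted p = 0.000156). Tnfsf13 had the narrowest spread, with values between 0.38 and 1.16, a median of 0.77 and 8 of 9 samples above 1.5-fold. Its mean was 0.80 ± 0.07 (SE, n = 9, limma adjusted p = 3.84e-06).

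Csf2 ranged between 0.19 and 1.13 at the high dose, with a median of 0.86. It was above air in 9 of 9 samples, but its 3 lowest values were those at 6 hours. Its mean was 0.71 ± 0.10 (SE, n = 9, limma adjusted p = 0.000212). Il1b ranged between -0.17 and 1.22 with a median of 0.44, and was above air in 7 of 9 samples. The 2 samples not above air were those at 2 hours after 2 and 7 weeks, and the 2 samples above 1.5-fold were those at 6 hours after 7 and 13 weeks. Its mean was 0.47 ± 0.12 (SE, n = 9, limma adjusted p = 0.0192). Without the 13-week samples the Il1b mean was 0.31 (adjusted p = 0.208), and without those at 6 hours 0.30 (adjusted p = 0.0743).

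**Figure D1:**
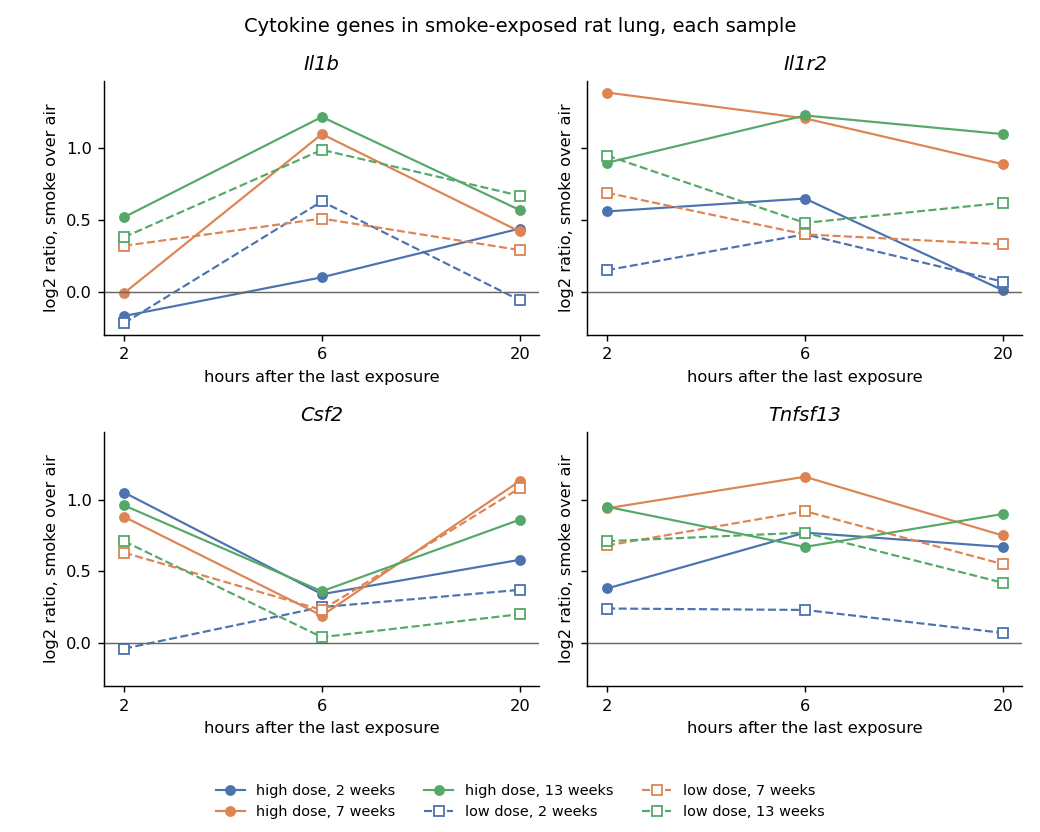
The log2 ratio of smoke over air (vertical) of each gene in each of the 18 samples, by hours after the last exposure, with dose by symbol and weeks by colour. High-dose Csf2 is lowest at 6 hours, and the Il1b ratio lies above that of Csf2 in 0 of 6 samples at 2 hours and 5 of 6 at 6 hours.

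At the low dose all 4 genes were called higher as well, where 3.51% of all genes were and the median over all genes was -0.002. Tnfsf13 stood at a mean of 0.51 ± 0.08 (SE, n = 9, adjusted p = 0.00247), with values between 0.07 and 0.92 and a median of 0.55. Il1r2 stood at 0.45 ± 0.08 (SE, n = 9, adjusted p = 0.00389), between 0.07 and 0.95 with a median of 0.40. Both were above air in 9 of 9 samples.

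The low-dose values of Csf2 and Il1b were less firm. Csf2 averaged 0.39 ± 0.10 (SE, n = 9, adjusted p = 0.0357) and ranged between -0.04 and 1.08 with a median of 0.25. Il1b averaged 0.39 ± 0.10 (SE, n = 9, adjusted p = 0.0383) and ranged between -0.22 and 0.99 with a median of 0.38. Each lost its call when certain single combinations were left out. For Il1b these were the 3 combinations of 7 weeks, the 3 of 13 weeks and that of 2 weeks and 6 hours, with means of 0.32 to 0.40 and adjusted p-values of 0.0628 to 0.0974. For Csf2 they were the 3 combinations of 7 weeks, those of 13 weeks at 2 and 20 hours and that of 2 weeks and 20 hours, with means of 0.30 to 0.41 and adjusted p-values of 0.0532 to 0.103.

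Between the doses, no member passed the threshold, which 0.174% of all genes passed in either direction (7 of 4016). The dose comparison asks whether smoke of the higher concentration gave larger ratios, with both doses read against the same air pool. Il1r2 had the largest difference, high minus low 0.43 ± 0.09 (SE, n = 9 pairs, 95% interval 0.23 to 0.63, limma adjusted p = 0.063), and was higher at the high dose in 7 of 9 pairs. Its 9 differences ran between -0.06 and 0.81. Leaving out the pair of 2 weeks and 20 hours gave 0.49 (adjusted p = 0.0332) and leaving out that of 13 weeks and 2 hours also 0.49 (adjusted p = 0.026), which are the 2 pairs where the dose order was turned.

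Csf2 was higher at the high dose in 8 of 9 pairs, with differences between -0.04 and 1.09 (mean 0.32 ± 0.10 SE, 95% interval 0.11 to 0.53, adjusted p = 0.201). The largest was at 2 weeks and 2 hours, where the high-dose sample stood at 1.05 and the low-dose sample at -0.04. That low-dose value was listed in only 1 of the 2 rows of Csf2. Without this pair the mean difference of Csf2 was 0.22. Leaving out any 1 pair gave means of 0.22 to 0.37 (limma adjusted p = 0.223 to 0.397). Tnfsf13 was also higher in 8 of 9 pairs (mean 0.29 ± 0.08 SE, 95% interval 0.13 to 0.45, adjusted p = 0.13). Il1b differed least between the doses, by 0.08 ± 0.10 (SE, 95% interval -0.14 to 0.29, adjusted p = 0.881), and its pairs ran between -0.53 and 0.59. Whether the dose difference depended on hours or weeks was also tested, and no member passed (adjusted p = 1 over hours and 0.999 over weeks for each). Of all genes 0 passed either of these 2 limma tests, with 149 and 194 at an unadjusted p under 0.05.

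**Figure D2:**
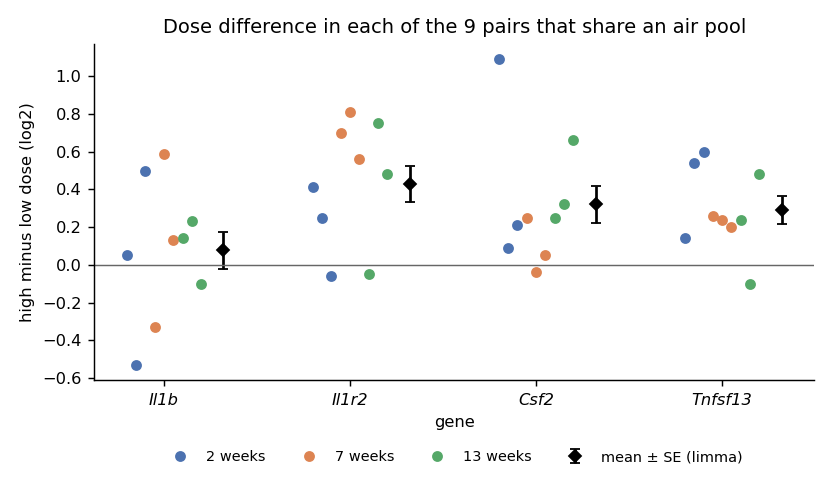
High minus low dose log2 difference (vertical) of each gene in the 9 pairs that share an air pool, coloured by weeks, with the limma mean ± SE as a diamond. Il1r2, Csf2 and Tnfsf13 lie mostly above 0, with means of 0.43, 0.32 and 0.29, and Il1b lies around 0.

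The study sampled lungs at 3 intervals after the last exposure, which asks how the ratio of smoke over air runs over hours. Each combination of weeks and hours has its own air pool. Over hours or weeks, changes in smoke-exposed lung and in air lung therefore cannot be told apart. Il1b was the one member whose ratio differed over hours (limma F test on 9 pool means with weeks as covariate, adjusted p = 0.0181), a test that 1.6% of all genes passed. A pool mean is the mean of the high-dose and low-dose sample read against 1 air pool. At 2 hours the Il1b ratios at 2, 7 and 13 weeks were -0.17, -0.01 and 0.52 at the high dose, against -0.22, 0.32 and 0.38 at the low dose. At 6 hours they were 0.10, 1.10 and 1.22 at the high dose, against 0.63, 0.51 and 0.99 at the low dose. At 20 hours they were 0.44, 0.42 and 0.57 at the high dose, against -0.06, 0.29 and 0.67 at the low dose. The values at 6 hours overlapped those at the other times, but within each duration the pool mean at 6 hours was the highest.

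Averaged over weeks and dose, Il1b stood at 0.14 at 2 hours, 0.76 at 6 hours and 0.39 at 20 hours (limma SE 0.07 each with weeks as covariate, n = 3 pools). Between the 3 pools of an hour, which differ in weeks, the SD was 0.32 at 2 hours, 0.37 at 6 hours and 0.22 at 20 hours. The 6-hour level exceeded the 2-hour level by 0.62 ± 0.10 (SE, limma adjusted p = 0.00952), a difference called in 1.45% of all genes. The 20-hour level lay below that at 6 hours by a difference of -0.37 (adjusted p = 0.122). Leaving out 1 combination ended the F test's call for that of 2 weeks and 2 hours (range over hours 0.60, adjusted p = 0.0591), 7 weeks and 6 hours (0.59, adjusted p = 0.114) and 13 weeks and 6 hours (0.58, adjusted p = 0.0757). The difference of 6 minus 2 hours lost its call without the last 2 of these (adjusted p = 0.0846 and 0.0506), in the high-dose samples alone (0.69, adjusted p = 0.154), in the low-dose samples alone (0.55, adjusted p = 0.191) and with no covariate (adjusted p = 0.143).

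Csf2 ran the other way over hours, without passing the test. At 2 hours its ratios at 2, 7 and 13 weeks were 1.05, 0.88 and 0.96 at the high dose, against -0.04, 0.63 and 0.71 at the low dose. At 6 hours they were 0.34, 0.19 and 0.36 at the high dose, against 0.25, 0.23 and 0.04 at the low dose. At 20 hours they were 0.58, 1.13 and 0.86 at the high dose, against 0.37, 1.08 and 0.20 at the low dose. At the high dose the 3 values at 6 hours lay below all 6 at the other times, and at the low dose the times overlapped. The levels were 0.70 at 2 hours, 0.23 at 6 hours and 0.70 at 20 hours (limma SE 0.10 each with weeks as covariate, n = 3 pools). The F test gave an unadjusted p = 0.00851 and an adjusted p = 0.155 in limma, and 6 minus 2 hours was -0.46 ± 0.14 (SE, adjusted p = 0.153).

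Il1r2 and Tnfsf13 moved little over hours. Il1r2 stood at 0.77 at 2 hours, 0.73 at 6 hours and 0.50 at 20 hours (SE 0.08, F test adjusted p = 0.364). Tnfsf13 stood at 0.65, 0.75 and 0.56 in the same order (SE 0.07, adjusted p = 0.541). For neither gene did a difference between hours pass the test, which does not show that the levels are equal.

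Against air, the level at 2 hours was called higher for Il1r2 (adjusted p = 9.39e-05), Tnfsf13 (0.000171) and Csf2 (0.000773), but not for Il1b (0.216), where 8.09% of all genes were called higher. At 6 hours Il1b (4.28e-05), Tnfsf13 (8.39e-05) and Il1r2 (0.000201) were called, and Csf2 (0.222) was not, against a background of 3.43%. At 20 hours all 4 were called, with adjusted p = 0.00141 for Tnfsf13, 0.00202 for Csf2, 0.00564 for Il1r2 and 0.00755 for Il1b, against 3.41% of all genes. At 20 hours Il1b lost the call without the combination of 2, 7 or 13 weeks (0.31, 0.42 and 0.44, adjusted p = 0.131, 0.0763 and 0.0594). Il1r2 lost it at 20 hours without that of 7 or 13 weeks (0.54 and 0.39, adjusted p = 0.0589 and 0.103). In the low-dose samples alone no member was called at 20 hours, with 0.30 for Il1b (adjusted p = 0.291), 0.34 for Il1r2 (0.221), 0.55 for Csf2 (0.121) and 0.35 for Tnfsf13 (0.131). In the high-dose samples alone Il1b was not called at 20 hours (0.48, adjusted p = 0.0854), and with no covariate neither Il1b (0.12) nor Il1r2 (0.062) was. The low-dose samples alone also lost the call of Csf2 at 2 hours (0.43, adjusted p = 0.122) and that of Il1r2 at 6 hours (0.43, adjusted p = 0.104).

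**Figure D3:**
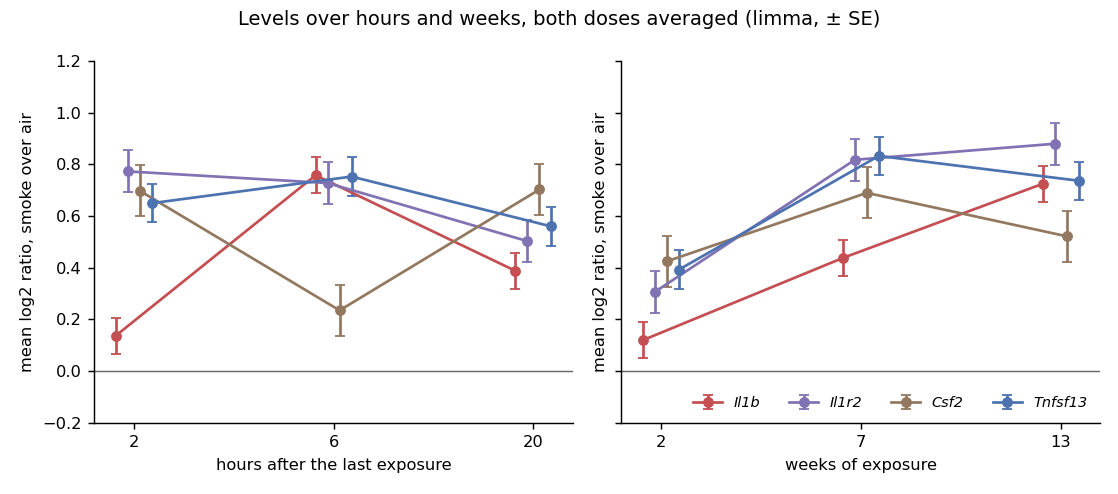
Mean log2 ratio of smoke over air (vertical, both doses averaged, limma ± SE, n = 3 pools a point) by hours after the last exposure on the left and by weeks of exposure on the right, with times spaced evenly. The SE is that of the fit of 9 pool means with the other factor as covariate. Il1b peaks at 6 hours with 0.76, where Csf2 has its lowest level of 0.23, and over weeks Il1b stands at 0.12, 0.44 and 0.73.

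Over weeks of exposure no member passed the F test, which 0.125% of all genes passed (5 of 3994). Il1b had the smallest p among the members, with levels of 0.12 at 2 weeks, 0.44 at 7 weeks and 0.73 at 13 weeks (unadjusted p = 0.000224, limma adjusted p = 0.116). Its difference of 13 minus 2 weeks, 0.61 ± 0.10 (SE), was called (adjusted p = 0.0386), as for 0.175% of all genes. Leaving out any 1 of 8 of the 9 combinations, all but that of 7 weeks and 2 hours, took this call away, with differences of 0.54 to 0.69 and adjusted p-values of up to 0.21. The call was also lost with no covariate (adjusted p = 0.969), in the high-dose samples alone (0.65, adjusted p = 0.742), in the low-dose samples alone (0.56, adjusted p = 0.46), with every probe on its own (0.0543) and without values listed in 1 of 2 rows (0.136). At each hour the pool mean of Il1b was lowest at 2 weeks and highest at 13 weeks.

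Il1r2 stood at 0.31 at 2 weeks, 0.82 at 7 weeks and 0.88 at 13 weeks (F test adjusted p = 0.206). At the high dose its 2-week values at 2, 6 and 20 hours were 0.56, 0.65 and 0.01, all below the 6 values at 7 and 13 weeks, which ran between 0.89 and 1.39. At the low dose the 2-week values were 0.15, 0.40 and 0.07, and those at 7 and 13 weeks overlapped them. Tnfsf13 stood at 0.39 at 2 weeks, 0.83 at 7 weeks and 0.74 at 13 weeks (adjusted p = 0.376). At the high dose Tnfsf13 had 0.38, 0.77 and 0.67 at 2 weeks, which overlapped the 6 later values of 0.67 to 1.16. At the low dose it had 0.24, 0.23 and 0.07 at 2 weeks, below all 6 later values, which ran between 0.42 and 0.92. Csf2 stood at 0.43, 0.69 and 0.52 at 2, 7 and 13 weeks (adjusted p = 0.902).

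At 2 weeks Tnfsf13 was the member called above air (adjusted p = 0.0171), where 1.58% of all genes were. It lost that call without the 2-week combination of 2, 6 or 20 hours (0.45, 0.39 and 0.34, adjusted p = 0.0669, 0.142 and 0.231), in the low-dose samples alone (0.18, adjusted p = 0.549) and with no covariate (adjusted p = 0.0708). Csf2, with adjusted p = 0.0507 at 2 weeks, was called there when any 1 combination of 7 or 13 weeks was left out (adjusted p = 0.0182 to 0.0474), in the high-dose samples alone (0.66, adjusted p = 0.0107) and over the genes with every value (adjusted p = 0.0363). All 4 genes were called above air at 7 weeks, against a background of 4.93%, and at 13 weeks, against 4.76%. At 7 weeks the adjusted p-values were 3.21e-05 for Tnfsf13, 8.15e-05 for Il1r2, 0.00123 for Csf2 and 0.00232 for Il1b. At 13 weeks they were 4.87e-05 for Il1r2, 5.6e-05 for Il1b, 7.67e-05 for Tnfsf13 and 0.0076 for Csf2. Csf2 lost the call at 13 weeks without the combination of 13 weeks and 2 hours (0.40, adjusted p = 0.114), in the low-dose samples alone (0.32, adjusted p = 0.348) and with no covariate (adjusted p = 0.0791). Il1b lost its call at 7 weeks in the low-dose samples alone (0.37, adjusted p = 0.121) and with no covariate (adjusted p = 0.137).

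Among themselves the members did not share 1 order over the 9 pools. For the 6 pairs of genes, Pearson's r and Spearman's rho over pool means were tested by exact permutation, two-sided and adjusted over the 6 pairs. Il1r2 and Tnfsf13 had r = 0.81 (adjusted p = 0.0461) and rho = 0.78 (adjusted p = 0.103, exact permutation). Without the 2 pools farthest from the median of Il1r2, r was 0.58, so the relation rests in part on those pools. The pools differ by weeks and hours and are not replicates of 1 condition. Il1b and Csf2 had r = -0.43 (adjusted p = 0.38, exact permutation) and rho = -0.47. The Il1b ratio was above that of Csf2 in 0 of 6 samples at 2 hours, in 5 of 6 at 6 hours and in 1 of 6 at 20 hours. The other 4 pairs had r between 0.00 and 0.63.

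In the IL-1 system, 28 genes were listed, 19 are on the table and 18 could be tested. Of the 18, 3 rose at the high dose (Il1b, Il1r2 and Il18) and 2 fell, with a list median of 0.01. Of all genes, 9.56% were called higher and 7.64% lower at this dose, and 3.51% and 1.44% at the low dose. Without the 2 members, 1 of 16 genes of the list rose at the high dose and 0 at the low dose, which is not above those shares. Il18, a relative of Il1b whose product caspase-1 also activates, had a high-dose mean of 0.45 ± 0.07 (adjusted p = 0.000367, above air in 9 of 9 samples) and 0.31 ± 0.10 at the low dose (adjusted p = 0.105). Pycard, the inflammasome adaptor that brings caspase-1 into play, fell by 0.28 on the log2 scale at the high dose (SE 0.08, adjusted p = 0.0212). Traf6, the ubiquitin ligase downstream of the IL-1 receptor, fell by 0.30 (SE 0.08, adjusted p = 0.0227).

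At the low dose Il1b and Il1r2 were the 2 called genes of that list. Casp1, which encodes the enzyme that cuts the precursor, had a high-dose mean of -0.14 (adjusted p = 0.111) and the shared receptor chain Il1rap one of -0.01 (adjusted p = 0.939). Casp4, the inflammatory caspase that senses bacterial lipopolysaccharide inside cells, differed over hours, with levels of 0.06 at 2 hours, -0.19 at 6 hours and 0.50 at 20 hours (adjusted p = 0.0123). Il1a had values in 7 high-dose samples, between -0.04 and 0.63, and in 5 low-dose samples, between -0.49 and 0.50, too few for a test. Il1rn, Il1r1 and Nlrp3 are not analysed here.

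Of the genes around GM-CSF, 20 were listed, 17 are on the table and 13 could be tested. Csf2, its receptor chain Csf2ra and the nuclear receptor gene Pparg rose at the high dose, Csf1r fell, and the median was 0.09. Without Csf2, 2 of 12 rose at the high dose and 1 at the low dose, beside 9.56% and 3.51% of all genes called higher. The share of all genes called lower at the high dose was 7.64%. Csf2ra had a high-dose mean of 0.29 ± 0.05 (adjusted p = 0.00231, above air in 9 of 9 samples) and 0.13 at the low dose (adjusted p = 0.244). Pparg had a high-dose mean of 0.34 ± 0.07 (adjusted p = 0.00503) and 0.30 ± 0.08 at the low dose (adjusted p = 0.0391), where it and Csf2 were the 2 called genes of the list. Csf1r, the receptor of the macrophage growth factor M-CSF, fell by 0.19 at the high dose (SE 0.06, adjusted p = 0.0377), and its ligand gene Csf1 stood at 0.15 (adjusted p = 0.162). The shared receptor chain Csf2rb had values in 6 high-dose samples, between -0.12 and 0.77, and in 5 low-dose samples, between -0.74 and 0.71, and was not tested. Csf3r is not analysed here.

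Of the TNF ligands and receptors, 42 were listed, 31 are on the table and 26 could be tested. In high-dose samples 4 rose and 0 fell, with a median of 0.04, and at the low dose Tnfsf13 was the 1 called. Without Tnfsf13, 3 of 25 rose at the high dose, close to the 9.56% of all genes, and 0 at the low dose. Besides Tnfsf13 the 4 were Ltb, the lymphotoxin chain that shapes lymphoid tissue, at 0.37 ± 0.10 (adjusted p = 0.026), Tnfrsf12a, the receptor of TWEAK, at 0.32 ± 0.10 (adjusted p = 0.0445), and the lymphocyte receptor Cd27 at 0.20 ± 0.06 (adjusted p = 0.0275). Tnfrsf12a also differed over hours, with 0.63 at 2 hours, 0.13 at 6 hours and -0.21 at 20 hours (adjusted p = 0.00474).

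The nearest relatives of Tnfsf13 were not called. Tnfsf13b had a mean of -0.06 at the high dose (adjusted p = 0.587) and -0.12 at the low dose (adjusted p = 0.385), and the shared receptor gene Tnfrsf17 had -0.12 at the high dose (adjusted p = 0.164). Tnf itself had a high-dose mean of 0.06 (adjusted p = 0.669). Tnfsf12, which encodes TWEAK and lies directly beside Tnfsf13 in the rat gene table, had a high-dose mean of 0.09 ± 0.06 (adjusted p = 0.307) and 0.06 at the low dose (adjusted p = 0.739). It was named here, after its values were seen, because the 2 genes are neighbours. Tnfrsf13b and Tnfrsf13c are not analysed here.

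**Figure D4:**
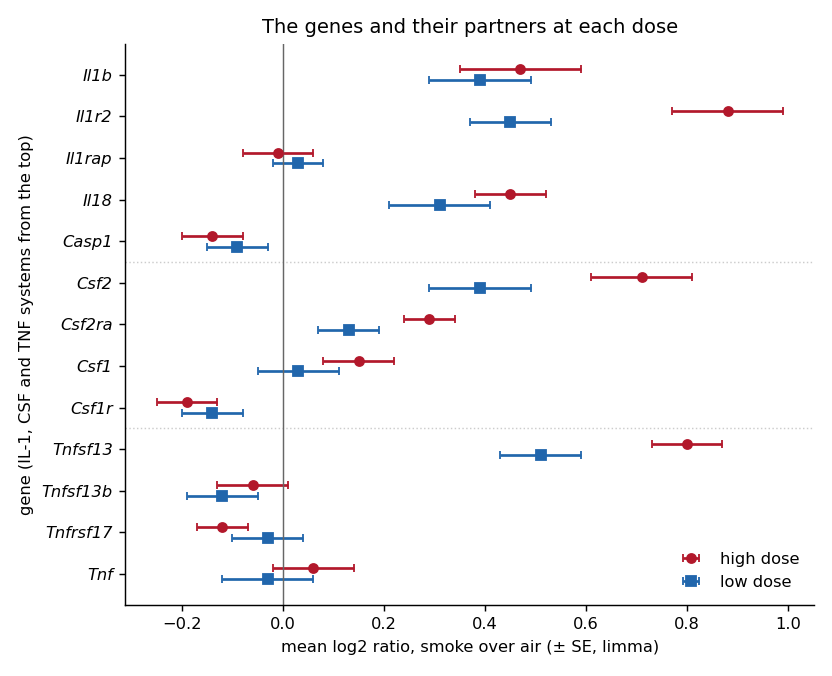
Mean log2 ratio of smoke over air (horizontal, limma ± SE, n = 9 samples a dose) at the high and the low dose for the 4 genes and those of their partners that could be tested, grouped by the IL-1, colony-stimulating factor and TNF systems. Il1b, Il1r2, Csf2 and Tnfsf13 lie to the right of most partners, with Il18 and Csf2ra nearest to them at the high dose.

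Of NF-κB factors and targets, through which IL-1β and TNF act, 33 were listed and 21 tested. At the high dose 7 rose and 0 fell, with a median of 0.10, and at the low dose 4 rose. Among all genes, 9.56% were called higher and 7.64% lower at the high dose, and 3.51% higher and 1.44% lower at the low dose. The tested factor genes were not called at the high dose, with Nfkb1 at 0.04 (limma adjusted p = 0.649), Nfkb2 at 0.02 (0.814) and Rela at -0.09 (0.303). Lcn2, which encodes the iron-withholding protein lipocalin-2, stood at 2.65, the neutrophil attractant Cxcl1 at 1.52 and the mitochondrial superoxide dismutase Sod2 at 1.17 at the high dose. Among the others that rose were Ptgs2, the inducible cyclooxygenase, at 0.39 ± 0.06, the early response gene Ier3 at 0.36 ± 0.08 and the inhibitor gene Nfkbib at 0.34 ± 0.08. Of other cytokines 10 of 32 listed genes were tested, with a high-dose median of -0.01. At the high dose 2 rose (Mif at 0.27 and Il24 at 0.24) and 2 fell (Il16 at -0.24 and Il15 at -0.18). Called higher at the low dose were 2, Spp1 at 1.17 ± 0.20 (limma adjusted p = 0.00378) and Mif at 0.25 ± 0.07 (adjusted p = 0.0465). Spp1 had the largest high-dose mean of this list, 0.49, without a call (adjusted p = 0.0809). Its high minus low difference was -0.68 ± 0.15 (limma adjusted p = 0.0618).

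Over the 18 samples, the genes whose pattern was most like that of Il1b were S100a8 (Pearson's r = 0.857), Lrg1 (0.842), S100a9 (0.806), Slc47a1 (0.795) and Clip2 (0.772). S100a8 and S100a9 encode the 2 chains of calprotectin, which neutrophils hold in large amounts. These r values describe 18 samples in which the 2 doses share air pools, and carry no p. S100a8 stood at -0.68 at 2 hours, 0.77 at 6 hours and 0.26 at 20 hours (F test adjusted p = 0.000156), and at -0.81, 0.19 and 0.96 at 2, 7 and 13 weeks (adjusted p = 0.000111). S100a9 stood at 0.16 at 2 hours, 1.66 at 6 hours and 1.04 at 20 hours (adjusted p = 0.00325), and at -0.41, 1.16 and 2.12 over weeks (adjusted p = 0.000111).

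Among the neutrophil markers as a whole, 24 were listed and 9 tested. Their median over genes was 0.16 at 2 hours, 0.59 at 6 hours and 0.17 at 20 hours, and -0.19, 0.19 and 0.62 at 2, 7 and 13 weeks. By the limma F tests 3 were called over hours and 3 over weeks, as were 1.6% and 0.125% of all genes. Lcn2 stood at 2.19, 2.16 and 2.17 over hours. Of the 9 tested, 4 rose (S100a9, Cxcr2, Lcn2 and Cybb) and 3 fell (Fpr1, Retnlg and Fcnb) at the high dose, where 9.56% of all genes were called higher and 7.64% lower. S100a8 was not called at the high dose (0.32, limma adjusted p = 0.532) or at the low dose (-0.09, adjusted p = 0.877). The list's median in a sample lay between -0.17 and 1.16 at the high dose and between -0.23 and 0.70 at the low dose. The part of these markers in the values of Il1b was not tested, and ratios do not show which markers are at 0.

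Il1r2 was most like Ctss (0.939), Noxo1 (0.846), Cd68 (0.826), Lcn2 (0.812) and Gdf11 (0.795). Ctss encodes the lysosomal protease cathepsin S and Cd68 a lysosomal protein of macrophages. Tnfsf13 was most like Sod2 (0.870), Lgals3 (0.863), Ctsd (0.863), Tlr2 (0.838) and Zcchc17 (0.835). Lgals3 encodes galectin-3, abundant in macrophages, Ctsd the protease cathepsin D, and Tlr2 a receptor for bacterial lipoproteins. Tnfsf13 ranked 52 of 3559 genes by likeness to Il1r2 (r = 0.667).

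Macrophage and monocyte markers rose widely beside Il1r2 and Tnfsf13. Of 18 tested (27 listed), 13 rose and 2 fell (Adgre1 and Csf1r) at the high dose, with a median of 0.57, and 12 rose and 1 fell (Adgre1) at the low dose, with a median of 0.41. The shares of all genes called higher were 9.56% at the high dose and 3.51% at the low dose. The list's median in a sample lay between 0.30 and 0.81 at the high dose and between 0.01 and 0.58 at the low dose. Over hours it was 0.55, 0.46 and 0.46, and over weeks 0.29, 0.61 and 0.57. The part of these markers in the values of Il1r2, Tnfsf13 and Csf2 was not tested. Of 13 tested epithelial markers, 4 rose (Foxj1, Sftpa1, Sftpd and Napsa) and 1 fell (Aqp5) at the high dose, with a median of 0.09. At the low dose 3 of them rose (Sftpa1, Sftpd and Napsa) and 0 fell, with a median of -0.01. Of 16 tested lymphocyte and plasma cell markers, 1 rose (Sdc1) and 10 fell at the high dose, where 7.64% of all genes fell, with a median of -0.37, and at the low dose 0 rose and 1 fell (Cd4), where 1.44% of all genes fell, with a median of -0.08.

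Csf2 was most like Psmb7 (0.743), Ubox5 (0.741), Rfc5 (0.733), Hpn (0.714) and Pvalb (0.690), which are lower values than the first 5 of each other member. Psmb7, Ubox5 and Rfc5 were not called at either dose, with high-dose means near 0 (0.07, 0.07 and 0.02). Pvalb was not called at either dose (0.13 at the high dose, limma adjusted p = 0.246). Hpn was called higher at the high dose (0.45, adjusted p = 0.000591) and at the low dose (0.26, adjusted p = 0.0378). Its levels were 0.41, 0.13 and 0.53 at 2, 6 and 20 hours (F test adjusted p = 0.125). Psmb7 encodes a subunit of the proteasome and Rfc5 a subunit of the clamp loader of DNA replication. None of these 5 belongs to the marker lists of macrophages, neutrophils or lymphocytes.

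**Figure D5:**
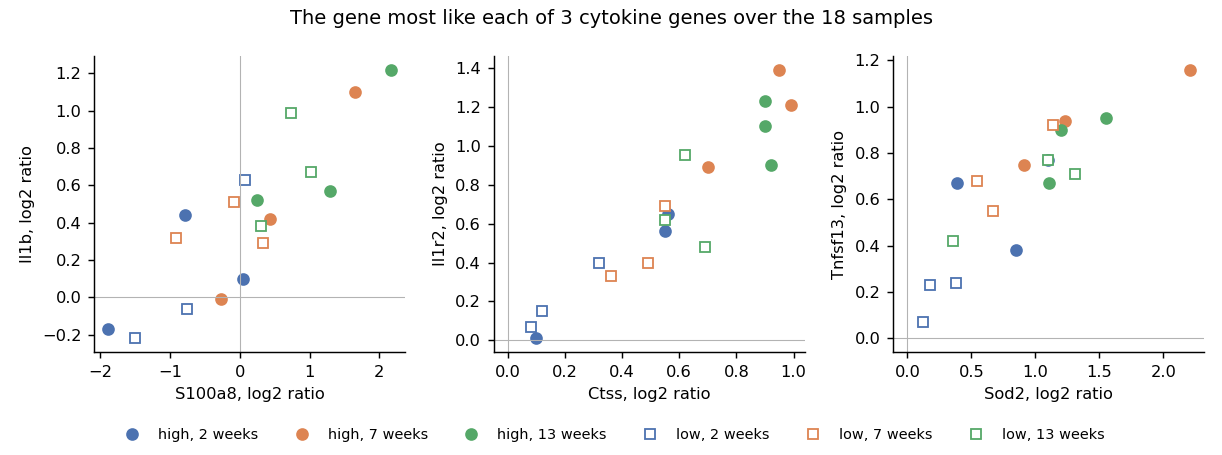
The log2 ratio of Il1b, Il1r2 and Tnfsf13 (vertical) against that of the gene most like it (horizontal) in the 18 samples, with dose by symbol and weeks by colour. Il1b follows S100a8 with r = 0.857, Il1r2 follows Ctss with r = 0.939 and Tnfsf13 follows Sod2 with r = 0.870, and samples of 2 weeks lie mostly at the lower left.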

How the data were processed

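The authors deposited 1 table of log2 ratios. The base was read from the values, since 100% of those under -1 are the log2 of some 2-decimal ratio. Each labelled sample went onto 2 arrays, per the labels. How spots were scanned, corrected, filtered and normalized is not given in the sources used here, and the deposited values have sample medians near 0, as centring would give. Rows with the same values for 1 gene were merged, and several probes of a gene were averaged. Of 9658 rows with a symbol, 9614 matched the rat gene table (GRCr8).

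A gene was tested if at least 6 of 9 combinations held it at both doses (4016, and 3994 over hours and weeks), with limma 3.58.1 in R 4.3.3, two-sided. The tests were the mean of the 9 ratios of a dose against 0, the 9 differences of high minus low dose on 1 air pool each, and F tests and differences over hours or weeks on 9 pool means with the other factor as covariate. Called means a Benjamini-Hochberg adjusted p under 0.05 over all genes. Exact permutation used scipy 1.17.1. Named are the 4 members, up to 6 genes a list that were called in any of these tests, by the largest high-dose change, listed partners of the members, and the 5 genes of highest r with each member. Other genes of cell type lists are named with their counts, and the NF-κB factor genes without a call beside theirs, chosen after their values were seen. Samples were grouped by title and paired by the name of the control source.

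The members and lists were chosen with earlier results of these data known. Promoters are from RefSeq (GRCr8). Tried as alternatives were other filters, each probe alone, each combination, duration or interval left out, each dose alone, an exact sign-flip test, and no pairing.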

Additional observations from a re-analysis of the deposited data

Results flagged for a closer look

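Il1b differed between levels of a factor by a test of the difference itself. Its range over hours was 0.622 (limma F test adjusted p = 0.0181), set by 6 minus 2 hours, which was 0.622 (adjusted p = 0.00952) and was above 0 in the pool means of 2, 7 and 13 weeks alike. Il1b lost the call of this range under 7 of 17 alternatives, and that of 6 minus 2 hours under 5 of 17. Over weeks, its difference of 13 minus 2 weeks was 0.605 (adjusted p = 0.0386), with the F test over weeks at adjusted p = 0.116, and this call was lost under 13 of 17 alternatives (adjusted p of up to 0.969). No single value of the 4 genes stood apart from the rest of its group by Dixon's criterion.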

How the results depend on the processing

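No result changed sign among those called. At the high dose Il1r2, Csf2 and Tnfsf13 kept the call under all 22 alternatives (0.74 to 1.12, 0.58 to 0.91 and 0.72 to 0.90). Il1b at the high dose kept it without any 1 combination (0.37 to 0.54), and lost it without 7 weeks (0.45), 13 weeks (0.31), 6 hours (0.30) or 20 hours (0.46) and with the sign-flip test (0.47, adjusted p = 0.113). At the low dose, Il1b lost the call with every probe alone (0.39), without 7 weeks (0.40), 13 weeks (0.25), 2 hours (0.51), 6 hours (0.23) or 20 hours (0.44) and by sign-flip (0.39), and ranged over 0.32 to 0.47 without 1 combination. Csf2 lost it without 2 weeks (0.48), 7 weeks (0.26), 13 weeks (0.42), 2 hours (0.36), 6 hours (0.49) or 20 hours (0.30) and by sign-flip (0.39), with 0.30 to 0.44 without 1 combination. Il1r2 and Tnfsf13 lost it without 7 weeks (0.45 and 0.41), without 13 weeks (0.34 and 0.45) and by sign-flip (0.45 and 0.51). With 9 samples the sign-flip test cannot give a p under 0.00391, which both genes reached, and at the low dose this came to an adjusted p of 0.114, so no gene could pass there. The high minus low difference of Il1r2 was called over the 3560 genes with every value (0.43, adjusted p = 0.0363), and ranged over 0.38 to 0.49 without 1 combination. The range of Il1b over hours lost its call at the low dose alone (0.55, adjusted p = 0.284), at the high dose alone (0.69, 0.251), with no covariate (0.62, 0.216) and without values listed in 1 of 2 rows (0.60, 0.0599), the last chosen after seeing the data, and ranged over 0.58 to 0.69 without 1 combination. Taking the shared air pool out of the dose comparison (no replicate block) changed no member's call, with 2 genes called in all against 7 with it. Counts of all called genes, in either direction, moved most. At the high dose they were 691 in all, but 198 without 7 weeks, 268 without 13 weeks, 278 without 2 hours, 398 without 20 hours and 322 by sign-flip. At the low dose they were 199, but 128, 50 and 33 without 2, 7 and 13 weeks, 48, 104 and 122 without 2, 6 and 20 hours, 123 without the combination of 13 weeks and 2 hours, and 0 by sign-flip (770 at an unadjusted limma p under 0.05). Between the doses they were 7, but 24 over genes with every value, 4 with every probe alone, 0 without 7 weeks or 6 hours, 4 without 13 weeks, 1 without 20 hours and 0 by sign-flip (398 at an unadjusted limma p under 0.05). Leaving out 1 pair gave 4 (7 weeks and 2 or 6 hours) to 20 (13 weeks and 2 hours), with 11 without 2 weeks and 20 hours. Over hours they were 64, but 29 to 35 without the combination of 7 weeks and 6 or 20 hours, 33 at the high dose alone and 18 at the low dose alone. Over weeks they were 5, but 2 at the high dose alone, 1 at the low dose alone, 2 with no covariate, and 2 to 3 without 1 combination of 2 weeks or that of 7 weeks and 6 hours. Alternatives that leave out a duration, an interval or a dose have fewer samples, and elsewhere the cause was not tested.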
